A study of Mus musculus with 6 samples.

Results

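Keratins, the small proline-rich (Sprr) proteins and a few other proteins of the outer layers of stratified epithelium were followed through RNA-seq of mouse heart ventricle. The members are all genes of the expression table whose symbol is Krt followed by a number and at most 1 letter, or starts with Sprr, together with 7 named genes: S100a8, S100a9, Sfn, Dmkn, Krtdap, Sbsn and Cstdc5. They number 53 of the 18181 genes in the table: 17 type I keratins, 16 type II keratins, 13 Sprr genes and the 7 named ones. The set was put together with the values of these libraries known, so its levels are given as a description; a fit of age across all genes is given at the end for its counts alone. The study set ventricles of C57BL6 mice aged 6 to 8 weeks (young) against ventricles of C57BL6 mice aged 24 to 26 months (aged), with 3 libraries at each age, no treatment and no engineered allele. The labels call them separate samples but do not say that each is its own mouse, so spreads between libraries may be technical in part. Values are FPKM, fragment numbers divided by the length of the transcript and by the depth of the library.

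Keratins are the intermediate filament proteins of epithelial cells, and a filament is built from pairs of 1 type I and 1 type II chain. Which pair a cell makes marks the kind of epithelium: Krt5 with Krt14 the dividing basal layer of stratified epithelia, Krt4 with Krt13 the upper layers of wet, internal ones such as the oesophagus and mouth, Krt1 with Krt10 the upper layers of skin, Krt6 with Krt16 and Krt17 activated keratinocytes and some mucosal and appendage sites, and Krt8 with Krt18 and Krt19 simple, 1-layered epithelia. In the outermost cells of stratified epithelia, transglutaminases join Sprr proteins, loricrin and late cornified envelope (Lce) proteins into a shell under the membrane, the cornified envelope. Heart muscle cells build their intermediate filaments from desmin, and the heart's own epithelium is the mesothelium, the thin sheet that covers it as epicardium.

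All 6 libraries carried heart muscle RNA, with the 10 cardiac muscle markers summing to between 48799 and 59582 FPKM. The members divided the libraries differently. Between 5 and 8 members reached 1 FPKM in young replicates 1 to 3 and in aged replicate 3, whereas 31 did in aged replicate 1 and 31 in aged replicate 2. Together the members summed to 29.2, 32.1 and 27.95 FPKM in young replicates 1 to 3, to 571 and 875 FPKM in aged replicates 1 and 2, and to 30.15 FPKM in aged replicate 3. This amounted to 0.101% and 0.162% of all FPKM in aged replicates 1 and 2 and between 0.00528% and 0.00585% in the other 4 libraries, so even there the members were a small part of the RNA. The split ran within the aged group, and the libraries are therefore given 1 by 1. In bulk tissue, more cells of a type and more RNA per cell cannot be told apart.

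A gene was counted as high in aged replicates 1 and 2 where it reached 1 FPKM in both and each value was at least 4 times that of every other library. Of the 53 members 26 met this, against 97 of all 18181 genes (0.534%); since the set was chosen for it, nothing is read from the comparison. They were 5 type I keratins, 5 type II keratins, 10 Sprr genes and 6 of the named genes, and 12 of the 26 were listed at 0 in all of the other 4 libraries. Just inside the limit lay Sfn, whose lower value of the 2 libraries was 4.43 times the highest of the rest, Sprr1a (5.31) and S100a8 (5.55), and just outside it Sbsn (3.52). Below 1 FPKM everywhere were 20 members, 18 of them keratins, of which Krt23 came highest at 0.72 FPKM and Krt27, Krt36 and Krt39 were listed at 0 in all libraries.

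**Figure D1:**
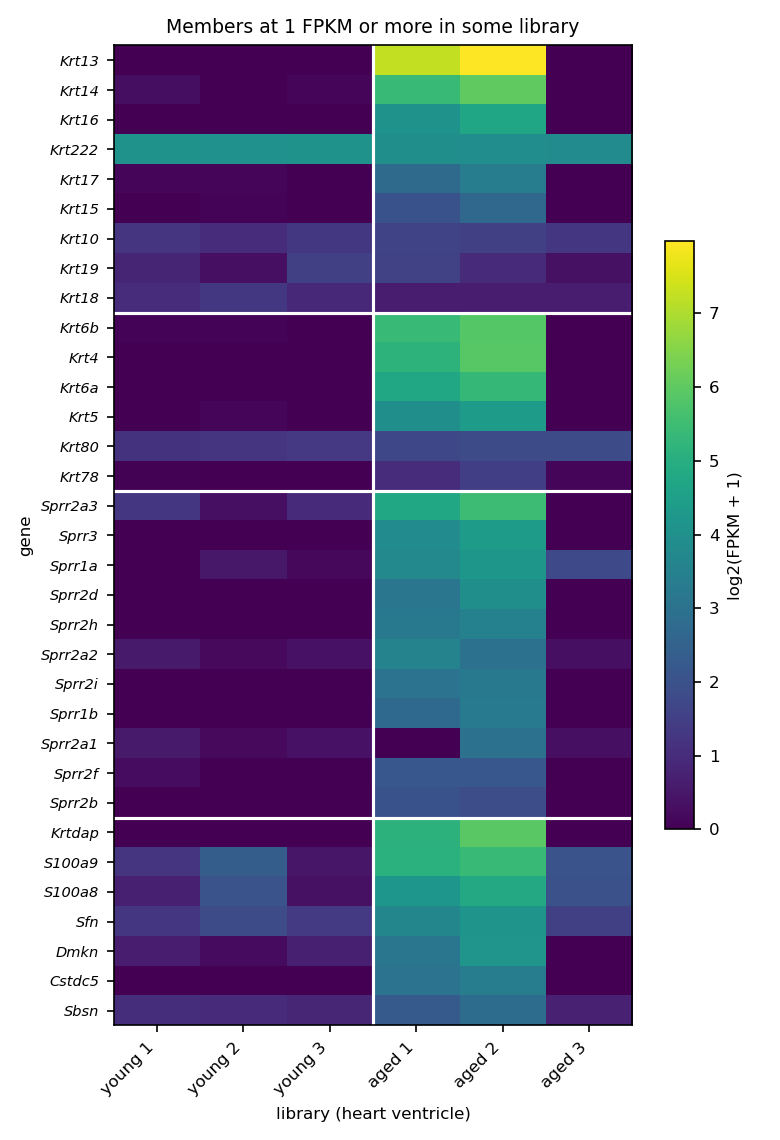
Levels of the 33 members that reached 1 FPKM in some library, as log2(FPKM + 1) by colour, in the 6 ventricle libraries (columns); white lines separate young from aged libraries and type I keratins, type II keratins, Sprr genes and other members from each other. Aged replicates 1 and 2 are bright in most rows and aged replicate 3 looks like the young libraries, while Krt222 is at a like level in all 6.

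Krt13, the type I keratin of the upper layers of oesophagus and mouth, had the highest level of any member. Its gene lies on chromosome 11 from base 100117327 to 100121566 of GRCm38, and it was at 152 and 250.3 FPKM in the pair of keratin-rich aged libraries and listed at 0 in the others. Its type II partner Krt4, listed at 0 in the same 4 libraries, was at 34.6 and 59.1 FPKM. The ratio of Krt13 to Krt4 was 4.38 in aged replicate 1 and 4.23 in aged replicate 2, so the pair stood in nearly the same proportion in both. By the estimate of depth described with the processing, these Krt13 values correspond to about 2445 and 3718 fragments, and the 3 fragments that a count of 0 allows would read as 0.177 to 0.238 FPKM of Krt13 in the other libraries. These limits cover counting error only, as fragments without molecular identifiers are not independent molecules. Krt78, a further type II keratin of internal stratified epithelia, was low but had the same distribution, at 1.01 and 1.76 FPKM against at most 0.07 elsewhere.

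The basal pair was present with it. Krt14 had 0.22, 0 and 0.09 FPKM in the young libraries, in order of replicate, against 40.3, 64.4 and 0 FPKM in the aged. Krt5, its partner, was at 14.6 and 19.9 FPKM in aged replicates 1 and 2 and at 0.1 FPKM or less elsewhere. The ratio of Krt14 to Krt5 was 2.77 and 3.24. Krt15, another basal type I keratin, reached 3.04 and 5.32 FPKM, with 0.06 FPKM in young replicate 2 as the only other value above 0. Basal cells and upper layers were thus both represented among the keratins of the same libraries.

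Keratins of activated keratinocytes made up a further group. Krt6a was at 26.4 and 38.9 FPKM and Krt6b at 41.25 and 58.05 FPKM in aged replicates 1 and 2, and neither passed 0.05 FPKM in another library. Krt16, listed at 0 in the rest, reached 15.6 and 25.4 FPKM, and Krt17 at 5.81 and 9.12 FPKM against at most 0.09. In each of the 2 libraries Krt16 thus lay below both type II partners, at 0.593 and 0.654 times Krt6a. Krt6a and Krt6b have 97.6% identical coding sequences, and 34.0% and 30.6% of the 100-base stretches of their transcripts occur in another gene, so the division of reads between them is uncertain. Their sum was 67.6 and 96.9 FPKM; some of the stretches also occur in Krt5 and in the gene models Gm5414 and Gm5478, which leaves the sum uncertain too. Summed over the keratins that were high in aged replicates 1 and 2, type I exceeded type II 1.84 times in the first and 1.996 times in the second of these libraries.

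The keratin pair of the upper epidermis was nearly missing. Krt1 was at 0.12 and 0.32 FPKM in aged replicates 1 and 2, about 2.90 and 7.13 fragments, and listed at 0 in the other 4 libraries. Krt10, its type I partner, was at 2.11 and 1.87 FPKM in these libraries and at 1 to 1.47 FPKM in the other 4, so most of its level was present without the rest of the keratins. Krt13 was thus far above Krt10 in both libraries, and Krt4 far above Krt1. None of the 13 keratins of hair, nail, tongue papillae and sebaceous duct (Krt26, Krt27, Krt28, Krt32, Krt36, Krt39, Krt75, Krt76, Krt79, Krt82, Krt83, Krt84 and Krt90) passed 0.2 FPKM in any library.

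Of the 13 Sprr genes 10 were high in aged replicates 1 and 2. Sprr proteins are short, proline-rich cross-bridges of the cornified envelope, and in their coding sequences between 20.6% (Sprr3) and 42.6% (Sprr2h) of codons were proline codons. Sprr3, which is best known from oesophagus and mouth, was at 13.2 and 20.4 FPKM in aged replicates 1 and 2, and Sprr1b at 5.58 and 8.85 FPKM; both were listed at 0 in the other 4 libraries. Sprr2d (7.67 and 14.8 FPKM), Sprr2h (8.34 and 10.3) and Sprr2i (7.27 and 8.33) were likewise listed at 0 elsewhere, as was Sprr2b at 3.06 and 2.73 FPKM. Sprr2f was at 3.49 and 3.45 FPKM, with 0.19 FPKM in young replicate 1. Sprr2e and Sprr2k stayed below 1 FPKM, at 0.19 and 0.79 FPKM for the former and 0.33 and 0.55 FPKM for the latter, and were also above 0 only in these libraries.

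The Sprr2a genes show where the table cannot separate members. Sprr2a2 was at 10.8 and 7.04 FPKM in aged replicates 1 and 2, and Sprr2a1 at 0 and 7.04 FPKM, with identical values for both genes in the other 5 libraries. Their coding sequences of 252 bases do not differ at any base, 92.5% and 92.8% of the 100-base stretches of their transcripts occur in another gene, and the 0 of Sprr2a1 is therefore not a measure of that gene alone. Sprr2a3, at 26.6 and 42.75 FPKM, differs from them at 3 of 252 coding bases. Of the 100-base stretches of its transcript a smaller share, 36.2%, occurs in another gene. Summed, the 3 genes came to 2.35, 0.54 and 1.56 FPKM in young and to 37.4, 56.8 and 0.5 FPKM in aged libraries. The coding sequences of Sprr2a1 and Sprr2a3 (GENCODE M21 transcripts, chromosome 3) are shown because these 3 bases, in capitals, are all that separates them.
Sprr2a1: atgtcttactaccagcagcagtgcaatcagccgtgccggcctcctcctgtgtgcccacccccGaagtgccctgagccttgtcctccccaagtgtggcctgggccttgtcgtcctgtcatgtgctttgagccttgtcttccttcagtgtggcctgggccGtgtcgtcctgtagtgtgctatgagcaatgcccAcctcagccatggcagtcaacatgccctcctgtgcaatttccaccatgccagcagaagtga
Sprr2a3: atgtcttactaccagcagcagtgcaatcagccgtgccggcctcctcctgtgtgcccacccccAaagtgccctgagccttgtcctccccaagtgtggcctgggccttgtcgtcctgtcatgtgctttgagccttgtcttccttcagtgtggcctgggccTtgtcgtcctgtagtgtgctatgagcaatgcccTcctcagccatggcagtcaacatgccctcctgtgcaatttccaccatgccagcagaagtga

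The other Sprr genes share a chromosome with these. All 13 lie with S100a8 and S100a9 on chromosome 3 between bases 90669071 and 92485881 of GRCm38, a part of the epidermal differentiation complex. The ends of this span were set by the members themselves, and genes of the complex such as Rptn lie outside it. Within it 15 of 20 measured genes are members, and 12 of the 15 were high in aged replicates 1 and 2. The keratins lie in a pair of clusters, 16 of the 17 type I genes on chromosome 11 and the 16 type II genes on chromosome 15, where the type I gene Krt18 lies beside Krt8. In each cluster 5 members were high, close together on chromosome 11 but not on chromosome 15. On chromosome 11 they are Krt13, Krt15, Krt14, Krt16 and Krt17, between bases 100117327 and 100261029, with Krt19 as the only other member among them. On chromosome 15 Krt6b, Krt6a and Krt5 follow each other between bases 101676023 and 101712905. Krt1 and Krt76, which were not high, come next. Krt4 starts only at base 101918535, and Krt78 follows it with Krt79 in between.

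Upstream sequences were read where the RefSeq table held them, for 42 members and 14326 genes in all, over 250 bases before to 50 after the start. TATAAA, the core of a TATA box, was searched on both strands, as was TGANTCA, the letters bound by AP-1 factors, where N is any base. TATAAA occurred in 11% of all these genes and in 8 of the 10 Sprr genes that were high in aged replicates 1 and 2, and TGANTCA in 7.30% of all genes and 7 of the same 10. In 10 Sprr genes TATAAA lay on the coding strand, and in 7 of these it began 29 bases before the start. Of the 4 keratins with the same distribution and a window in the table none held TATAAA and 1 held TGANTCA. Over all members with a window, 22 of 42 held TATAAA and 13 of 42 TGANTCA. Of the 20 that were high in aged replicates 1 and 2, 11 held the former and 10 the latter. Of the 22 others, 11 held the former and 3 the latter, so the share with the former was similar in both (55% and 50%). Among Sprr genes that were not high, Sprr2e and Sprr2k held both motifs and Sprr2a1 held neither. Such matches describe letters and not a bound site. Printed here, from RefSeq on GRCm38.p6, are the 250 bases upstream of Sprr1b (chr3:92438780-92439029, minus strand), Sprr2h (chr3:92385435-92385684, plus strand) and Sprr3 (chr3:92458721-92458970, minus strand). Those of Krtdap (chr7:30787655-30787904, plus strand) and Krt13 (chr11:100121567-100121816, minus strand) follow. They are examples of members listed at 0 outside aged replicates 1 and 2, and each holds at least 1 motif. Not shown are others at 0 there, such as Cstdc5, whose window held neither motif, and another Krt13 window that held TGANTCA. Capitals mark both motifs.
Sprr1b: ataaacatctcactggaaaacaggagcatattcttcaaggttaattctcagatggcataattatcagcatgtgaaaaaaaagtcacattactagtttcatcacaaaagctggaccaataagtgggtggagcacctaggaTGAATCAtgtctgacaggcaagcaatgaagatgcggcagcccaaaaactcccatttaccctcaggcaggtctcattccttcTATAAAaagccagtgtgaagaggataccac
Sprr2h: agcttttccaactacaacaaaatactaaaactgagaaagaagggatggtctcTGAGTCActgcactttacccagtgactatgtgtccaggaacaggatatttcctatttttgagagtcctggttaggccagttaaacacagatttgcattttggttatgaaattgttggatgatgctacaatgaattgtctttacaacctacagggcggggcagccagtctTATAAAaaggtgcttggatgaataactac
Sprr3: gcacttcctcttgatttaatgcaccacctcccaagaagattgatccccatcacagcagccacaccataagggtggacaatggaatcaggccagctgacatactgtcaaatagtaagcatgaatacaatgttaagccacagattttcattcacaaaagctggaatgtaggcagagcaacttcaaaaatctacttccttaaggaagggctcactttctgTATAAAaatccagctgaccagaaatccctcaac
Krtdap: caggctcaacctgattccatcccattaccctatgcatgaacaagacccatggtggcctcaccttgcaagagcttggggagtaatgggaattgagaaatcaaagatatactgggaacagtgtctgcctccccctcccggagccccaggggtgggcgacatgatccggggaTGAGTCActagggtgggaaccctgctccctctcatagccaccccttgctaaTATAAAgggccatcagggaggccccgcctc
Krt13: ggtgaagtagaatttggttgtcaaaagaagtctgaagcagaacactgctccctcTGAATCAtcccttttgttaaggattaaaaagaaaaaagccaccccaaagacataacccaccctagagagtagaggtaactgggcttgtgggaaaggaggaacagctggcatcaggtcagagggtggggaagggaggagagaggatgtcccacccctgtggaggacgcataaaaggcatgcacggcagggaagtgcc
In these windows the TATAAA of the Sprr genes and Krtdap stands near the right end, next to the start, and Krt13 has none on this strand.

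Of the 7 named members 6 followed the keratins. Krtdap, a small secreted protein of differentiating keratinocytes, was at 34.04 and 60.15 FPKM in aged replicates 1 and 2 and listed at 0 in the others. Cstdc5, of the stefin group of protease inhibitors, was at 7.27 and 9.40 FPKM and also listed at 0 elsewhere. Dmkn, which encodes dermokine of the same skin gene cluster, was at 0.51, 0.18 and 0.61 FPKM in young and at 7.82, 16.7 and 0 FPKM in aged libraries. For these genes the other 4 libraries gave at most 0.61 FPKM.

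S100a8, S100a9, Sfn and Sbsn differed from them in having RNA in all 6 libraries. S100a8, which pairs with S100a9 to form calprotectin, was at 0.61, 3.13 and 0.27 FPKM in young and at 17.4, 26.85 and 2.91 FPKM in aged libraries. S100a9 was at 1.32, 4.07 and 0.40 FPKM and at 33.4, 40.2 and 3.15 FPKM. Calprotectin is made by neutrophils as well as by keratinocytes, so 12 other neutrophil genes were listed beside it. These summed to 3.64, 6.48 and 2.85 FPKM in the young and to 4.64, 4.97 and 4.93 FPKM in the aged libraries; none was high in aged replicates 1 and 2. Ltf (lactoferrin), a granule protein of neutrophils and of glands, was at 0.69 and 0.6 FPKM there, above 0.04, 0.56 and 0 FPKM in young and 0 in aged replicate 3. Camp and Ngp, also granule proteins, were at 0 in all 3 aged libraries. Both were highest in young replicate 2, at 0.98 and 1.83 FPKM, the young library with the highest S100a8 and S100a9. Mmp9 and Csf3r went the other way, with all aged values above all young ones. Mmp9 was at 0.27, 0.38 and 0.27 FPKM in young and at 1.47, 1.35 and 1.84 FPKM in aged libraries. Csf3r was at 0.73, 1.1 and 0.62 FPKM in young and at 1.14, 1.68 and 1.71 FPKM in aged libraries. Sfn, the 14-3-3 sigma protein of keratinocytes, was at 1.4, 2.61 and 1.55 FPKM in young and at 11.6, 16.5 and 1.84 FPKM in aged replicates, and Sbsn (suprabasin) at 1.07, 0.94 and 0.82 FPKM and at 3.77, 6.06 and 0.67 FPKM. In aged replicate 3 S100a8, S100a9 and Sfn fell inside the range of the young libraries and Sbsn below it.

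The members held a roughly common proportion between the 2 libraries. Over the 26 genes the ratio of aged replicate 2 to aged replicate 1 had a median of 1.54, with quartiles of 1.31 and 1.64, and 23 of the 26 lay above 1. Sprr2a2 (0.651), Sprr2b (0.892) and Sprr2f (0.989) were the exceptions, and with the Sprr2a genes summed the ratio was 1.52. At the upper end lay Sprr2d (1.93) and Dmkn (2.13). Medians by family were 1.63 for type I keratins, 1.47 for type II keratins, 1.33 for Sprr genes and 1.49 for the named genes. The 71 other genes that were high in the same 2 libraries had a median ratio of 1.53, with a range of 0.763 to 2.74. The median over 11580 genes at 1 FPKM or more in both was 1.01 (quartiles 0.922 and 1.10), and over the cardiac muscle markers 0.960. Across the 26 members the log2 levels of the 2 libraries had a Pearson r of 0.975 and a Spearman rho of 0.966, a description over genes that share both libraries.

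**Figure D2:**
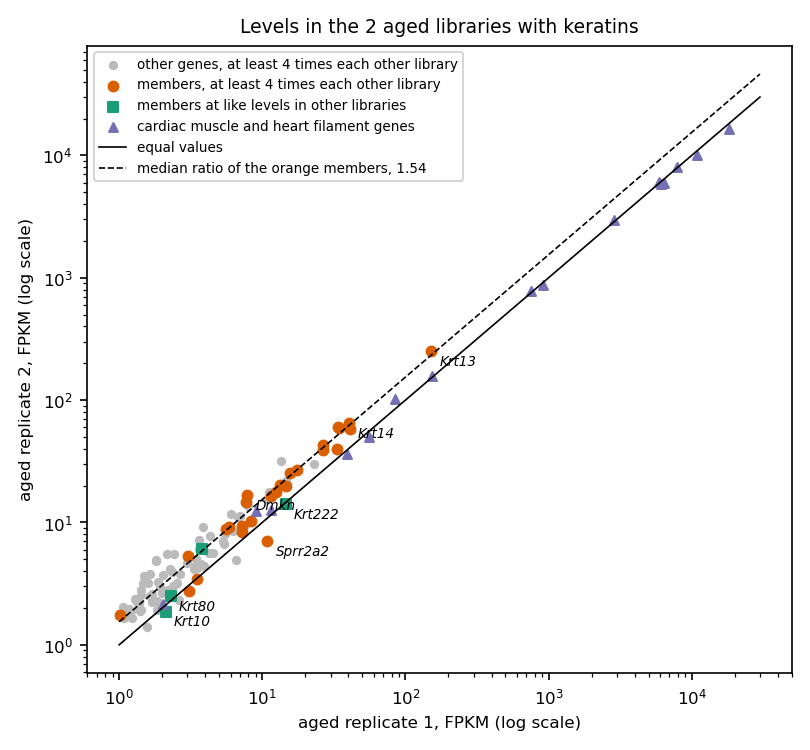
FPKM in aged replicate 2 (y axis) against aged replicate 1 (x axis), both on log scales; each point is a gene. Members that were high in these libraries (orange) and other such genes (grey) lie along the dashed line of the members' median ratio of 1.54, while cardiac genes (purple triangles) and Krt222 and Krt10 lie near the solid line of equal values.

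Lists of marker genes were used to ask which epithelium this RNA resembled. They were written with earlier results known and are described by counts, beside a background of 10.1% of all genes for which aged replicates 1 and 2 both exceeded each other library. Of the 17 measured genes of oesophageal and oral mucosa, 13 exceeded each other library in both, 7 reached 1 FPKM in both and 6 were high by the rule above. Besides the members Krt13, Krt4, Sprr3 and Krt78, these 6 included Tgm3, a transglutaminase of the envelope, at 6.80 and 11.1 FPKM against at most 0.06. They also included Rptn (repetin), at 1.41 and 2.54 FPKM and listed at 0 elsewhere. The list summed to 214 and 352 FPKM in aged replicates 1 and 2, most of it from these 4 members, which the choice of the set had fixed. Its 13 other genes summed to 13.2 and 20.5 FPKM there and to 2.07 to 3.44 FPKM in the other 4 libraries, and 9 of them exceeded each other library. Crnn, encoding cornulin, a gene typical of the oesophagus, was at 0 and 0.06 FPKM in them and at 0.05, 0.22 and 0.10 FPKM in young, so not every gene of the list was there.

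Genes of the interfollicular epidermis were present as well. All 20 measured genes of that list exceeded each other library in aged replicates 1 and 2, and 13 were high by the rule. Without the members Krt1 and Krt10 its 18 genes summed to 63.85 and 90.2 FPKM there and to 0.47 to 0.87 FPKM in the rest, more than the genes of oesophageal and oral mucosa without members. Lor (loricrin), the main protein of the epidermal envelope, was at 14.75 and 21.55 FPKM against at most 0.72. Of the 14 measured Lce1 genes 11 were high, together 42.3 and 61.95 FPKM, and all 6 Lce3 genes were, together 23.2 and 36.6 FPKM; all 20 were listed at 0 in the other 4 libraries. Asprv1, the protease that processes filaggrin, was at 5.39 and 6.70 FPKM. On the other side stood Krt1, and Flg (filaggrin) and Hrnr (hornerin), which reached at most 0.05 FPKM; these were singled out after their values were seen. Krt2, Krt77 and Flg2 were not analysed here.

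Some of the remaining lists were general to stratified epithelia. All 9 genes of activated keratinocytes and all 3 basal keratins were high, but these lists consist of members. Of 31 other cornified envelope genes 24 exceeded each other library and 11 were high, such as Cnfn (cornifelin) at 14.55 and 21.7 FPKM and 0 elsewhere. Of 8 desmosome genes of stratified epithelium 7 exceeded each other library, but only Pkp1 (plakophilin 1), at 1.63 and 2.49 FPKM, was high. In the basal layer list Col17a1, a hemidesmosome collagen, was at 1.34 and 2.26 FPKM against at most 0.12, while Trp63, the master regulator of the basal layer, was at 1 and 0.71 FPKM against 0.16 to 0.51. Of 18 genes general to epithelia 12 exceeded each other library and 1 was high, Rab25, at 1.84 and 1.93 FPKM against at most 0.21. Ovol1 was at 0.67, 1.03 and 0.35 FPKM in young and at 2.5, 3.06 and 2.66 FPKM in aged libraries. Prom2 was at 0.02, 0 and 0.07 FPKM in young and at 1.62, 2.18 and 1.24 FPKM in aged libraries. Both were thus above all young values in aged replicate 3 as well. In that list Cdh1 was at 0.31 and 0.30 FPKM, and Epcam at 0.15 and 0.11 FPKM against 0.16 FPKM in young replicate 2.

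In lists for other epithelia no gene reached these limits, with the exception of cornea. No gene was high among 11 of hair follicle, 4 of tongue papilla and hard palate, 6 of urothelium, 10 of airway and lung, 11 of thymus, 5 of glandular stomach, 5 of sebaceous gland, 3 of mammary gland or 6 keratins of simple epithelia. Genes that exceeded each other library without reaching the limits were 3 of 10 for airway and lung. There was 1 each for hair follicle, tongue papilla, thymus, glandular stomach and simple epithelium keratins. The same held for 1 of 11 mesothelium and 1 of 2 salivary gland genes, lists in which no gene was high either. The salivary gene was Amy1, at 27.4 and 26.7 FPKM against 20.04 FPKM in aged replicate 3 and at most 1.74 FPKM in young. Cyp2f2, a cytochrome of airway club cells, was at 0.72 and 1.35 FPKM in aged replicates 1 and 2 and listed at 0 in the rest. Tff2, a trefoil peptide of gastric mucous cells, was at 0.75 and 0.62 FPKM and likewise listed at 0 elsewhere. Of 2 corneal genes Aldh3a1 was high, at 1.58 and 3.22 FPKM, and Pax6, which the cornea expresses, was at 0.04 and 0 FPKM. Among 24 regional transcription factors only Pitx1, a factor of the oral ectoderm and hindlimb, was high, at 1.86 and 3.27 FPKM against at most 0.20. Hoxc4, a positional gene of the HoxC cluster, was at 0.52 and 0.62 FPKM against at most 0.06. Barx2 was at 0.34 and 0.68 FPKM and listed at 0 elsewhere, and Pax9, a factor of oesophagus, tongue and thymus, at 0.31 and 0.42 FPKM against at most 0.08. Tbx1 and Sox2, also among the 5 highest of the list, did not separate these libraries, with 1.08 FPKM of Tbx1 in aged replicate 3 and 1.11 FPKM of Sox2 in young replicate 2 as their highest values. Of 12 fast skeletal muscle genes 7 exceeded each other library, beside 10.1% of all genes. Of the 12, 1 was high, the troponin Tnnc2 at 1.06 and 2.02 FPKM against at most 0.19. By name, Krt13, the highest keratin, and Krt4 are those of internal stratified epithelium. Between them by mean of aged replicates 1 and 2 stood the basal Krt14 (52.4 FPKM) and the activated Krt6b (49.65 FPKM), against 46.9 FPKM for Krt4. Lor and the Lce genes are those of a cornifying epithelium, which in the mouse includes skin and also the oral and oesophageal lining. The source of the RNA was not tested.

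**Figure D3:**
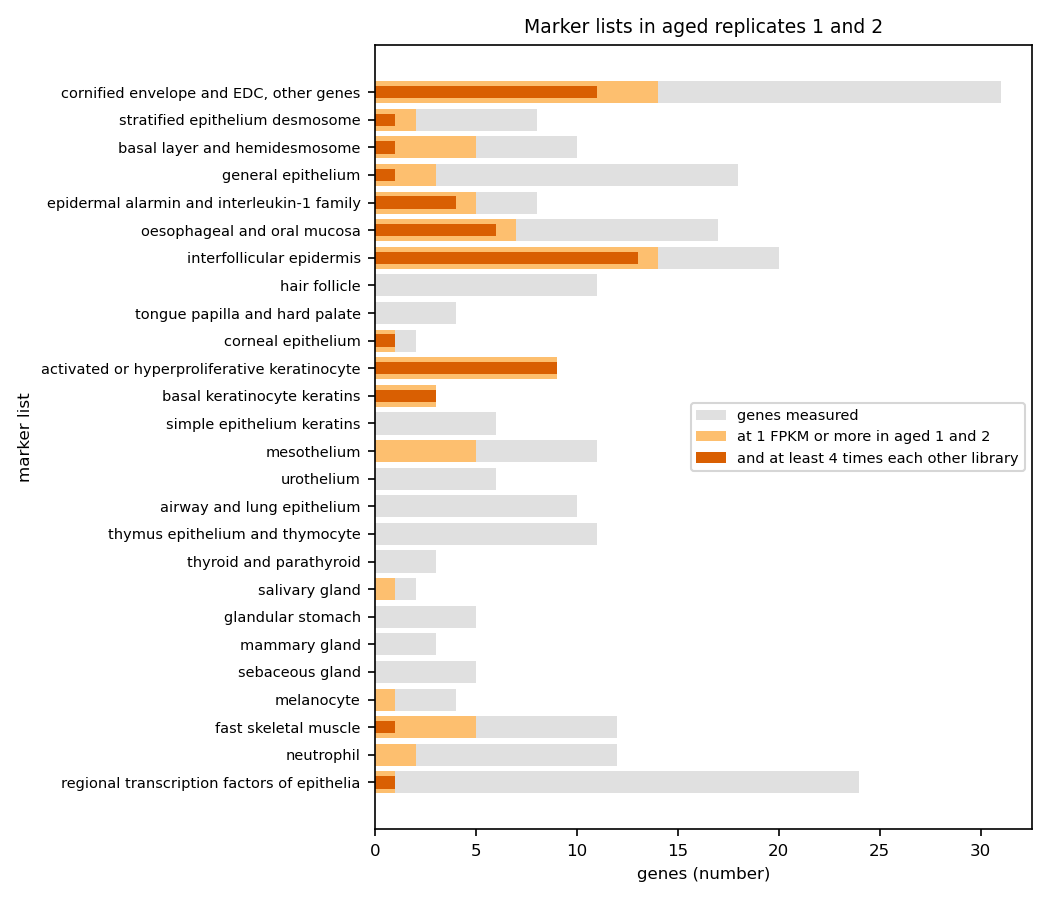
Number of genes (x axis) of each marker list (y axis): grey, measured; light orange, at 1 FPKM or more in aged replicates 1 and 2; dark orange, in addition at least 4 times each other library. Dark bars fill much of the lists for oesophageal and oral mucosa (6 of 17), interfollicular epidermis (13 of 20) and activated keratinocytes (9 of 9), and are missing for hair follicle, urothelium, airway and simple epithelium keratins.

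The 15 genes outside the set whose distribution was most like it were ranked by the log2 of the lower value of aged replicates 1 and 2 plus 1 over the highest of the other 4 libraries plus 1. In order they were Chil4, Cnfn, Crct1, Mt4, Slpi, Lor, Fam25c, Lce1b, Lce3c, Tgm3, Lce3a, Defb4, Nccrp1, Lce1d and Asprv1, with gaps from 4.48 down to 2.49. Chil4, a chitinase-like protein, was at 22.8 and 29.95 FPKM and at most 0.07 elsewhere. Slpi, a secreted protease inhibitor of mucosal surfaces, was at 13.5 and 32.1 FPKM. Its ratio between the 2 libraries, 2.38, was above that of any member at 1 FPKM or more in both.

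A smaller group of members had RNA in the heart libraries without the rest. By a limit of 0.1 FPKM in each of young replicates 1 to 3 and aged replicate 3, 11 members qualified: Krt10, Krt18, Krt19, Krt80, Krt222, S100a8, S100a9, Sbsn, Sfn, Sprr2a1 and Sprr2a2. Of these 5 are keratins, and Krt222, Krt80, Krt10 and Sfn alone stayed at 1 FPKM or more in all 4 libraries. Krt222, which encodes a short keratin-like protein related to type I keratins, had the highest level, 16.3, 15.3 and 15.7 FPKM in young and 14.6, 14.1 and 13.5 FPKM in aged libraries. The 3 aged values lay below all 3 young ones, with means of 15.7 ± 0.490 and 14.05 ± 0.558 FPKM (SD, n = 3). Krt80, a type II keratin of many epithelia, was at 1.27, 1.35 and 1.52 FPKM in young and at 2.29, 2.5 and 2.61 FPKM in aged, so aged replicate 3 had the highest value and the 2 groups did not overlap. Its mean rose from 1.38 ± 0.128 to 2.47 ± 0.163 FPKM (SD, n = 3), a ratio of 1.79.

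Simple epithelium keratins were low and did not follow the rest. Krt18 was at 1, 1.43 and 0.9 FPKM in young and at 0.51, 0.56 and 0.55 FPKM in aged, between about 6.01 and 18.4 fragments a library, and the groups did not overlap. Krt8, its partner, was at 0.42, 0.31 and 0.37 FPKM in young and at 0.28, 0.19 and 0 FPKM in aged. Krt18 was thus lower in all 3 aged libraries, also in those rich in Krt13. In all, 3 members had all aged values above all young ones (Krt80, Krt78 and Sprr1a; 12.7% of all genes did) and 3 had them below (Krt222, Krt18 and Krt8; 20.9% of all genes), so neither count stood above its background.

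Krt19 and Krt7 varied within each age. Krt19 was at 0.78, 0.25 and 1.83 FPKM in young and at 1.91, 0.98 and 0.29 FPKM in aged libraries, and Krt7 at 0.14, 0.07 and 0.67 FPKM and at 0.32, 0.42 and 0 FPKM. Young replicate 2 and aged replicate 3 were thus lowest for both, a pair of libraries noticed after the values were seen. Among the 8 mesothelium genes outside the set the same 2 were lowest for 5 (Upk3b, Upk1b, Msln, Lrrn4 and Bnc1), beside 3.43% of all genes, a count made because of Krt19 and Krt7. Msln (mesothelin) was at 1.15, 0.32 and 4.03 FPKM in young and 1.15, 1.03 and 0.25 FPKM in aged, and Upk3b at 1.37, 0.22 and 5.84 FPKM and 2.36, 1.96 and 0.5 FPKM. The other 3 did not share the order: Wt1, the highest of the list, was at 4.73, 5.22 and 4.27 FPKM in young, with young replicate 2 on top, and at 2.7, 3.85 and 3.65 FPKM in aged, Cldn15 was lowest in aged replicate 2, and Gpm6a was lowest in young replicates 1 and 2. The part of the mesothelium in the levels of Krt19 and Krt7 was not tested.

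Sprr1a is the member known also from stressed heart muscle. It was at 0, 0.43 and 0.13 FPKM in young and at 12.5, 17.8 and 2.36 FPKM in aged libraries. About 14 fragments lay behind the value of aged replicate 3, which had none of the keratins Krt13, Krt4, Krt14 and Krt5, and at most about 3.01 behind a young value. Among the members that were high in aged replicates 1 and 2, Sprr1a and the S100a8 and S100a9 pair were the ones with more than 2 FPKM in aged replicate 3. The cell source of the Sprr1a RNA was not tested, and the value in aged replicate 3 is that of 1 library.

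**Figure D4:**
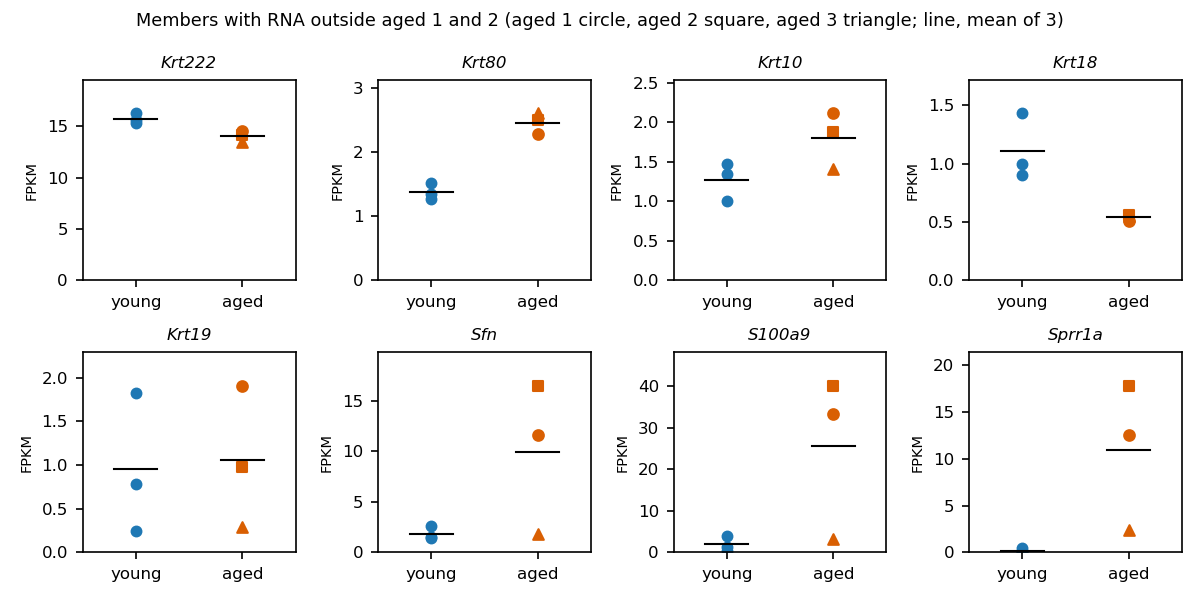
FPKM (y axes, each from 0) of 8 members with RNA outside aged replicates 1 and 2, by age; points are libraries, with aged replicate 1 as circle, 2 as square and 3 as triangle, and lines are means of 3. Krt80 is higher and Krt222 and Krt18 are lower in all 3 aged libraries, Krt19 spreads as widely within as between ages, and Sfn, S100a9 and Sprr1a are high in the circle and square.

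The members also entered a fit of age across all genes. Of the 53 members 30 had a mean of at least 1 FPKM and entered limma's moderated test on log2(FPKM + 1), most of them through aged replicates 1 and 2. With Benjamini-Hochberg adjustment over 11860 genes, 4 of the 30 were called higher in aged (Krt80, S100a8, S100a9 and Sprr1a), beside 9.32% of all genes tested. On leaving out 1 library the count was 26 without aged replicate 3, 4 without young replicate 2 and 2 without young replicate 1, young replicate 3, aged replicate 1 or aged replicate 2. Krt80 and Sprr1a were called without any 1 of the 6 libraries, whereas S100a8 and S100a9 were lost in the 4 fits with a count of 2. None was called lower, beside 17.1% of all genes; at an unadjusted p under 0.05, 24 members were higher and 1 lower. Without aged replicates 1 and 2, where the sole aged library is assumed to vary like the young, Sprr1a was the 1 member called higher, beside 2.08% of genes, and none was called lower, beside 1.82%, with 1 lower at an unadjusted p under 0.05. As the members were chosen on this contrast, nothing is read from these counts.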

How the data were processed

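Poly(A) RNA was read as paired 100-base reads on a BGIseq500, per the labels' protocols. The submitters' processing notes name RSEM 1.2.12, HISAT2 2.0.4, DESeq2 1.4.5, Bowtie2 2.2.5 and, as genome, mm10. The authors deposited 1 table of FPKM values per gene and library, which was used as it stands. FPKM of low genes fell in steps of whole fragments (transcripts of 600 to 1600 bases, values of 0.04 to 0.5 FPKM), giving an estimate of 7870000 to 10600000 fragments a library. Of such values 69.1% to 74.2% lay within 0.2 of a whole number, against 40% for a step fixed in advance. The step was fitted to these same values, so 40% is not the share to be had without steps after fitting. The steps depend on transcript length and RSEM divides reads of copies, so no count test was run, and fragment numbers are estimates. Members and marker lists were chosen with earlier results of these data known. limma 3.58.1 (R 4.3.3; eBayes with a mean trend, 2-sided) was fitted to log2(FPKM + 1) of all genes averaging 1 FPKM or more, with calls at a Benjamini-Hochberg adjusted p under 0.05; such folds understate changes of low genes. It was tested on simulated data. Named were members at 1 FPKM in any library, up to 5 genes a list by mean of aged replicates 1 and 2, list genes at 0, and the 15 most like genes; other list genes named were chosen after their values were seen. Sequences came from RefSeq (GRCm38.p6) and GENCODE M21. Tables used Python 3.11.15 and pandas 2.3.3. Alternatives were other pseudocounts, filters, scalings and fits, and leaving out libraries.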

Additional observations from a re-analysis of the deposited data

How the results depend on the processing

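The counts of members at 1 FPKM, of members high in aged replicates 1 and 2 and their median ratio kept within 1.5 times of the values given under the alternatives tried, except where named. At a limit of 0.5 FPKM, and likewise on TPM, young replicate 3 had 10 members; at 5 FPKM the 3 young libraries and aged replicate 3 had 1 each, 17 other genes were high in aged replicates 1 and 2, and 31 marker genes outside the set passed in both in place of 77. Calls of members higher in aged moved most: 2 with no filter, 10 at a minimum mean of 5 FPKM, 17 on TPM, 2 with robust eBayes, 1 without aged replicates 1 and 2, and 2 to 26 on leaving out 1 library, with 26 without aged replicate 3. The call lower was 1 with no filter (Krt18) and 0 to 0 on leaving out 1 library. Over all genes 247 were higher and 216 lower without aged replicates 1 and 2, and 711 to 1020 higher and 1171 to 1974 lower on leaving out 1 library. With a replicate block 23 members were called higher; the replicate numbers were not taken as pairs, since correlations of same-numbered deviations were 0.041, -0.080 and 0.038. Counts for marker lists stayed within the limits in 85 of 116 cases, and the log2 differences of 10 members within the spread between libraries in 87 of 100. The cause of these moves was not tested. Depth limits members under 1 FPKM, where a few fragments make a value.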

Other observations

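Genes of the surface and defence of stratified epithelium, chosen after their values were seen, had the distribution of the keratins. Serpinb3a and Serpinb12, protease inhibitors of the clade B serpins, were at 4.53 and 5.62 FPKM and at 3.62 and 7.21 FPKM in aged replicates 1 and 2, with at most 0.07 FPKM elsewhere. The kallikrein protease Klk10 was at 5.47 and 8.05 FPKM against at most 0.29, and 4 of 15 measured Klk genes were high in these libraries. The defensins Defb3 (3.94 and 4.37 FPKM) and Defb4 (5.33 and 7.01 FPKM) and the calmodulin-like Calm4 (3.84 and 9.26 FPKM) were listed at 0 in the other 4 libraries. Aqp3, a water and glycerol channel of basal keratinocytes, was at 2 and 2.67 FPKM against at most 0.11, and Gjb2 (connexin 26) at 1.70 and 2.62 FPKM against at most 0.11. Of enzymes typical of the upper digestive tract, Adh7 was at 1.30 and 2.35 FPKM against at most 0.06, and Lipf, a gastric and lingual lipase, at 1.38 and 1.99 FPKM and listed at 0 elsewhere. Their source was not tested.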
